A study of Mus musculus with 12 samples.

Results

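The genes that take a resting cell out of G1, the phase before DNA is copied, were followed in naïve CD8+ T cells of the mouse. They are 10 genes, found by their symbols among the 14323 rows of the count table: the D cyclins Ccnd2 and Ccnd3, the E cyclins Ccne1 and Ccne2, the kinases Cdk4, Cdk6 and Cdk2, the inhibitors Cdkn1a (p21) and Cdkn1b (p27), and the retinoblastoma gene Rb1. RNA was sequenced from TCRβ+CD8+CD62L+CD44- cells sorted from the spleens of 3 adult wild type mice and kept for 6 h in coated wells. Each mouse gave 1 library for each of 4 coatings, 12 in all. The coatings were isotype control alone (unstimulated), the LAIR-1 antibody 2C7 (anti-LAIR-1) without anti-CD3, anti-CD3ε (clone 145-2C11) with isotype, and anti-CD3ε with anti-LAIR-1, each antibody at 2.5 µg/ml. No group was a knockout or carried a transgene, and the cells of all groups had been through the same sort. LAIR-1 is an inhibitory receptor for collagen, and 2C7 was used to ligate it. The model is short and simple: an antibody on plastic stands in for antigen and collagen, no coating against CD28 is named, and each library was 1 well of 100000 cells.

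In G1, D cyclins bind CDK4 or CDK6 and E cyclins bind CDK2. The active kinases phosphorylate RB1 and its relatives, which releases E2F factors to switch on the genes of S phase. Proteins of the INK4 family inhibit CDK4 and CDK6, and p21 and p27 of the CIP/KIP family bind the cyclin and kinase complexes. A naïve T cell is held out of the cycle with high p27 and low cyclin levels, and the antigen receptor starts the loss of p27 and the supply of D cyclins and CDK4 some hours before DNA synthesis. Cyclin D2, cyclin D3 and CDK6 are the D cyclins and kinase best known from lymphocytes. These proteins are also controlled by degradation and phosphorylation, which RNA does not show.

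The RefSeq promoter windows of Cdk4 and Cdkn1b are printed here because they belong to a kinase that rose in every stimulated library and to the inhibitor whose level depended on both antibodies. Each is the 250 bases before the annotated start, 5′ to 3′, in the GRCm38.p6 build. In the Cdk4 window, chr10:127063285-127063534 on the + strand, capitals mark the E-box CACGTG, which is a letter sequence that MYC and other basic helix-loop-helix leucine zipper proteins can bind. The Cdkn1b window, chr6:134920151-134920400 on the + strand, holds none of the motifs searched and so has no capitals.
Cdk4: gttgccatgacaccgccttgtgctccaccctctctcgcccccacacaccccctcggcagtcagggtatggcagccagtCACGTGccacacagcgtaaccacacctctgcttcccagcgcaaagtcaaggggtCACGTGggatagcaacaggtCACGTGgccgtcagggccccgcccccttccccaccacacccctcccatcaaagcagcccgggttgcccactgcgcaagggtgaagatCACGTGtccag
Cdkn1b: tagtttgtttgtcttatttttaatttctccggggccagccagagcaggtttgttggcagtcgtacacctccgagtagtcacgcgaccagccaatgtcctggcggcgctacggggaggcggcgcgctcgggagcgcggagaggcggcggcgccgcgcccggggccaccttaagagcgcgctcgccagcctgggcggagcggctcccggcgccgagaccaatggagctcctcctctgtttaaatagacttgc
The table of promoters matched 7 of the 10 genes with 9 start windows, and Ccnd2, Ccne2 and Rb1 had no entry. Of the 32851 windows of 250 bases in that table, 6.02% held at least 1 E-box and 7 held at least 4, as the Cdk4 window did. The Cdk6 window held 1 E-box, with its first base at -220. Other motifs searched on both strands were the FOXO letters GTAAACA, in 3.17% of all windows and at -243 in that of the first Ccnd3 start, and E2F letters (TTTCCCGC, TTTGGCGC, TTTCGCGC or TTTGCCGC), in 1.86% of all windows and at -140 in that of Cdk2. Neither the cAMP response letters TGACGTCA (1.55% of all windows) nor the cell cycle homology letters TTTGAA (16% of all windows) were found in the 9 windows. A match is a string of letters, and no binding was measured.

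**Figure D1:**
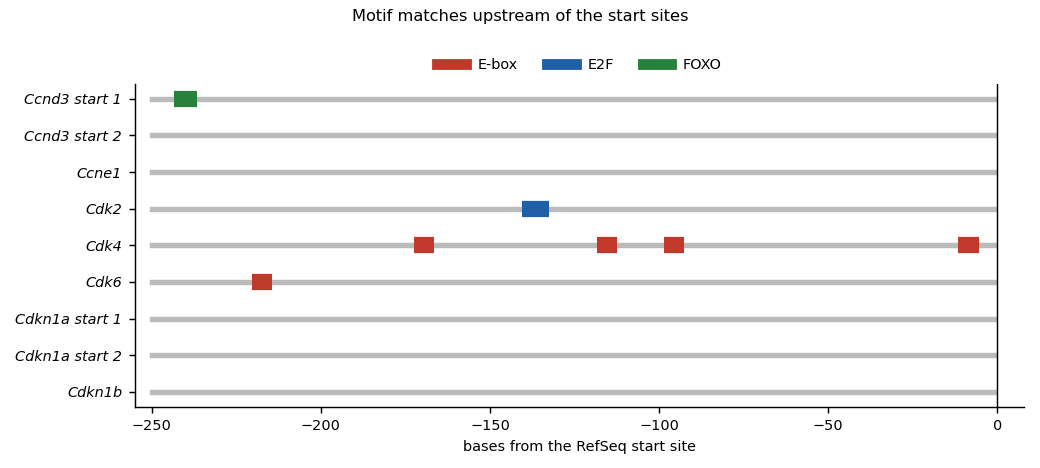
Motif matches in the 250 bases before the RefSeq start sites of 7 of the genes, with 2 starts for Ccnd3 and Cdkn1a. The x axis is the distance in bases from the start site, each grey line is 1 window, and coloured blocks are matches to an E-box, E2F or FOXO letters. The Cdk4 window holds 4 E-boxes and no other window holds more than 1 match.

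The libraries held 1781218 to 7725545 counted reads, and 10816 to 11838 genes had at least 1 read. The unstimulated libraries were the shallower ones, at 1781218 to 3589194 reads, against 3478294 to 7725545 with anti-CD3. Levels are given as CPM, reads of each gene relative to the library total after scaling by the trimmed mean of M values (TMM), and 3 reads corresponded to 0.405 to 1.62 CPM. Mitochondrial genes took 17.6% to 20.9% of reads without anti-CD3 and 11.5% to 13.2% with it. Against the sorted cell type, the 9 naïve CD8 markers summed to 5815 to 6422 CPM in the unstimulated isotype libraries, CD4 and regulatory T cell markers to at most 4.85 CPM, B cell markers to at most 19.8 CPM, 3 of 4 NK cell markers to at most 0.662 CPM and 3 of 6 erythroid and platelet markers to at most 3.72 CPM in any library. Ncr1 and the haemoglobin genes Hba-a1, Hbb-bs and Hbb-bt were searched by symbol and matched no counted gene, so that these sums say nothing of them. Of 7 myeloid markers the 4 that were matched summed to 28.1 to 63.5 CPM, and Lyz2, Adgre1 and S100a8 matched no counted gene. Nearly all of this sum was Cst3, with group means of 34.3 to 54.8 CPM, while those of Csf1r, Itgam and Fcer1g were at most 2.18 CPM. The 7 activation markers summed to 269 to 315 CPM without anti-CD3 and to 3419 to 4188 CPM with it.

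Anti-CD3 moved the G1 genes in both directions within 6 h. With isotype, Ccnd2, Cdk4, Cdk6 and Cdkn1a rose, Ccnd3, Ccne1, Cdkn1b and Rb1 fell, and Cdk2 did not pass, so that 8 of the 9 genes tested changed at an adjusted p under 0.05 (edgeR quasi-likelihood test, Benjamini-Hochberg over 8690 genes). This share is near that of the transcriptome as a whole, of which 71.3% of tested genes changed, 35.3% higher and 36.1% lower. Their median log2 fold change was 0.49, beside -0.03 over all genes tested. The tenth gene, Ccne2, was read 4 times over the 12 libraries, at 0 to 2 reads each, and passed the low-count filter in no comparison. In the presence of anti-LAIR-1, 9 of 9 tested genes changed with anti-CD3, 5 higher and 4 lower, against 72.7% of 9000 genes (36.4% higher and 36.3% lower). Cdk6 was tested in these 2 comparisons only because the stimulated libraries, where it was higher, had enough reads, and so its count among the called genes carries no weight. Ccne1 was tested with isotype only because of the unstimulated libraries, where it was higher, and its count there carries no weight either. The size of each change is described by role below, starting with the cyclins.

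**Figure D2:**
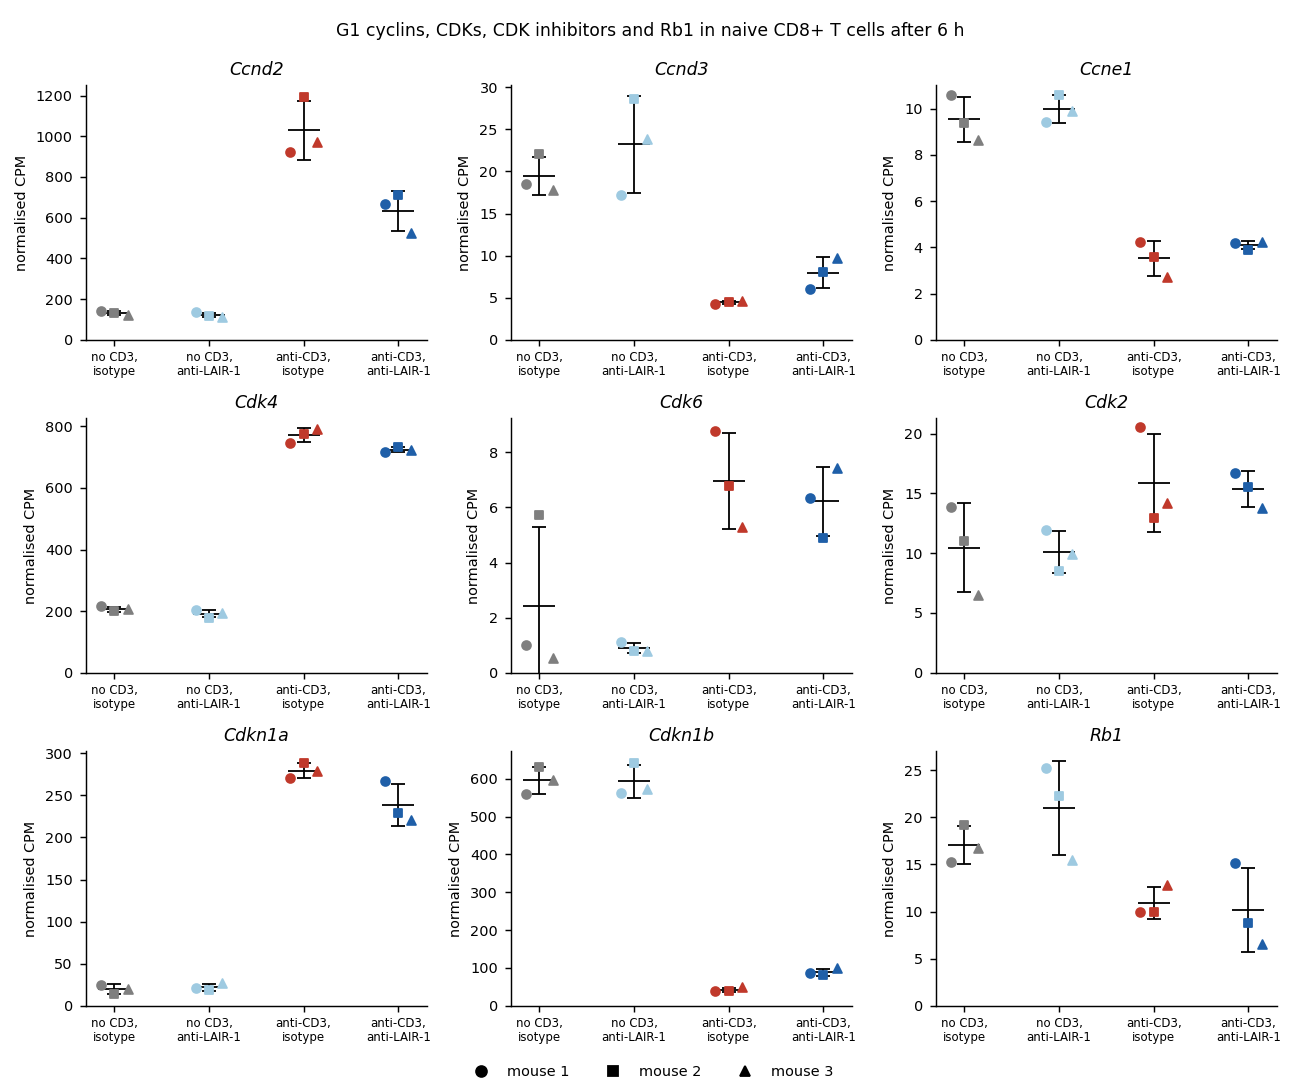
Level of 9 of the 10 genes in each library in TMM-scaled CPM (linear axes from 0), for the 4 groups of 3 mice. Point shapes mark the mouse, the long horizontal bar is the mean and the whiskers are the SD (the lower whisker of Cdk6 in the first group runs below 0 and is not drawn there). Cdkn1b lies at 561 to 642 CPM without anti-CD3, at 37.8 to 49.1 CPM with anti-CD3 and isotype, and at 81.4 to 98.9 CPM with anti-CD3 and anti-LAIR-1.

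Ccnd2 encodes cyclin D2, the D cyclin that lymphocytes induce early after receptor signals. Its gene lies at chr6:127125162-127152193 on the - strand of GRCm38 (mm10). In mice 1, 2 and 3 it stood at 144, 133 and 124 CPM in unstimulated cells with isotype and at 136, 119 and 112 CPM with anti-LAIR-1. With anti-CD3 it stood at 925, 1195 and 969.5 CPM with isotype and at 666, 712 and 523 CPM with anti-LAIR-1. The 6 stimulated libraries lay above the 6 unstimulated ones, and the 3 with anti-LAIR-1 lay below the 3 with isotype. Anti-CD3 raised Ccnd2 by 2.91 on the log2 scale with isotype (SE 0.11, adjusted p = 1.2e-16), or 7.50-fold, and by 2.37 with anti-LAIR-1 (SE 0.11, adjusted p = 3.4e-13), or 5.18-fold.

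Ccnd3, which encodes cyclin D3, moved the other way. In mice 1, 2 and 3 it stood at 18.5, 22.0 and 17.8 CPM in unstimulated cells with isotype and at 17.2, 28.7 and 23.8 CPM with anti-LAIR-1. With anti-CD3 it stood at 4.23, 4.45 and 4.66 CPM with isotype and at 6.07, 8.11 and 9.75 CPM with anti-LAIR-1. The stimulated and unstimulated libraries did not overlap. Anti-CD3 lowered it by -2.15 on the log2 scale with isotype (SE 0.26, adjusted p = 1.2e-07) and by -1.58 with anti-LAIR-1 (SE 0.23, adjusted p = 3.9e-06). Ccnd3 lies at chr17:47505051-47599691 (+ strand). The ends of its transcripts share a stretch of 502 bases with the processed pseudogene Ccnd3-ps, and reads that fit both equally well were discarded, so that its level is uncertain. Bysl overlaps Ccnd3 on the opposite strand and rose by 2.99 (adjusted p = 7.2e-14), against the direction of Ccnd3, and whether the counting used strand is not given in the sources used here.

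The E cyclins, which act with CDK2 at the end of G1, were at low levels. Ccne1 (cyclin E1, chr7:38097984-38107534, - strand) lay between 8.63 and 10.6 CPM in the unstimulated libraries of both kinds and between 2.73 and 4.24 CPM in the stimulated ones. It fell by 1.52 on the log2 scale with isotype (SE 0.34, adjusted p = 3.4e-04) and by 1.28 with anti-LAIR-1 (SE 0.26, adjusted p = 1.9e-04). With isotype, Ccne1 had 14 to 17 reads per stimulated library. It needed the unstimulated libraries, where it was higher, to pass the low-count filter, so that the filter favoured that fall. Ccne2 (cyclin E2) was at 0 reads in the 3 unstimulated isotype libraries, and no change could be detected at this depth.

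Among the kinases, Cdk4 showed the tightest groups. CDK4 is a partner of the D cyclins, and its gene is at chr10:127063534-127067920 (+ strand). It stood at 215, 199 and 206 CPM in unstimulated cells with isotype and at 203, 178 and 196 CPM with anti-LAIR-1. With anti-CD3 it stood at 746, 776 and 792 CPM with isotype and at 716, 734 and 723 CPM with anti-LAIR-1. The rise was 1.86 on the log2 scale with isotype (SE 0.09, adjusted p = 7.3e-15) and 1.91 with anti-LAIR-1 (SE 0.08, adjusted p = 4.6e-14), in both cases at adjusted p-values under the threshold in every alternative run. Tspan31, which overlaps Cdk4 on the opposite strand, was read 30 to 107 times per library and did not pass (log2 fold change -0.38, adjusted p = 0.166 with isotype), beside 382 to 5310 reads of Cdk4. The ends of Cdk4 transcripts share stretches of 62 to 80 bases with Crlf3, Olfr1274-ps, Pkd2 and Srek1. Reads that fitted several places equally were discarded, and the part of this in the Cdk4 counts was not tested.

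Cdk6, the other D cyclin kinase, had few reads. In unstimulated cells with isotype it was read 3, 14 and 1 times in mice 1, 2 and 3, and in those with anti-LAIR-1 it was read 4, 3 and 3 times. With anti-CD3 it was read 29, 32 and 33 times with isotype and 47, 29 and 35 times with anti-LAIR-1. The unstimulated isotype library of mouse 2, at 5.72 CPM, lay within the range of the stimulated ones (4.90 to 8.77 CPM), and the other 5 unstimulated libraries lay at 0.539 to 1.11 CPM. The rise with isotype was 1.42 on the log2 scale (SE 0.51, adjusted p = 0.0158), and 2.96 without that library. It did not pass without the unstimulated isotype library of mouse 1 (0.95, adjusted p = 0.130) or of mouse 3 (1.05, adjusted p = 0.0694). With anti-LAIR-1 the rise was 2.74 (SE 0.42, adjusted p = 9.1e-06). The end of Cdk6 (chr5:3341485-3531008, + strand) shares 233 bases with the pseudogene Gm16505, 89 with H60b and 95 with Raet1e.

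Cdk2 (chr10:128697939-128705031, - strand), the partner of the E cyclins, ranged from 6.47 to 13.9 CPM without anti-CD3 and from 12.9 to 20.6 CPM with it, and these ranges overlapped. Its difference of 0.49 with isotype did not pass (95% interval -0.08 to 1.05, adjusted p = 0.113), and the rise of 0.61 with anti-LAIR-1 did (SE 0.20, adjusted p = 0.0126). Neither side was firm. With isotype it passed without the unstimulated library of mouse 1 (0.76, adjusted p = 0.0442), and with anti-LAIR-1 it did not pass without the unstimulated library of mouse 2 (0.49, adjusted p = 0.0607).

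The CIP/KIP inhibitors moved in opposite directions. Cdkn1a encodes p21, an inhibitor that p53 and growth signals induce and that also helps D cyclins and CDK4 to assemble. The gene is at chr17:29090976-29100727 (+ strand). It stood at 25.2, 13.9 and 20.5 CPM in unstimulated cells with isotype and at 20.8, 18.6 and 26.8 CPM with anti-LAIR-1. With anti-CD3 it stood at 271, 288 and 279 CPM with isotype and at 267, 229 and 220.35 CPM with anti-LAIR-1. The rise was 3.76 on the log2 scale with isotype (SE 0.15, adjusted p = 2.5e-16), or 13.6-fold, and 3.43 with anti-LAIR-1 (SE 0.13, adjusted p = 2.2e-14), or 10.8-fold.

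Cdkn1b encodes p27, the inhibitor that marks resting T cells. The gene is at chr6:134920401-134925513 (+ strand), with no gene overlapping it in the annotation. It stood at 561, 631 and 596 CPM in unstimulated cells with isotype and at 564, 642 and 573 CPM with anti-LAIR-1. With anti-CD3 it stood at 37.8, 39.8 and 49.1 CPM with isotype and at 86.6, 81.4 and 98.9 CPM with anti-LAIR-1. The unstimulated groups overlapped, and the stimulated groups stood apart from them and from each other. The fall was 3.84 on the log2 scale with isotype, from 596 ± 35.0 to 42.2 ± 6.00 CPM (SD, n = 3 mice; SE 0.11, adjusted p = 1.9e-18), or 14.3-fold. With anti-LAIR-1 it fell by 2.75 (SE 0.09, adjusted p = 4.8e-15), or 6.71-fold.

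Rb1 encodes the retinoblastoma protein, the substrate of these kinases that holds E2F. The gene is at chr14:73183673-73325822 (- strand). It ranged from 15.2 to 25.2 CPM without anti-CD3 and from 6.57 to 15.1 CPM with it. In raw reads summed over 3 libraries, Rb1 went from 124 to 160 with isotype and from 233 to 195 with anti-LAIR-1. Its fall is thus one in its share of the library. The fall was 0.65 with isotype (SE 0.23, adjusted p = 0.0159) and 1.01 with anti-LAIR-1 (SE 0.26, adjusted p = 0.00168). The first of these did not pass without the unstimulated library of mouse 2 (adjusted p = 0.0661) or without the stimulated library of mouse 1 (adjusted p = 0.0543) or mouse 2 (adjusted p = 0.0684), nor with the DESeq2 test (adjusted p = 0.0999), which gave 0.179 with the mouse as a block. Lpar6 and Rcbtb2 overlap Rb1 on the opposite strand and fell by 2.87 and 1.97 (adjusted p = 6.9e-11 and 2.1e-05), and their part in the Rb1 counts was not tested.

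Several measures moved with anti-CD3 beside these genes. The naïve CD8 markers fell from 5815 to 6422 CPM to 1777 to 1909 CPM with isotype, and the activation markers rose. The myeloid sum, nearly all of it Cst3, fell from 48.0 to 63.5 CPM to 28.1 to 39.9 CPM, and the mitochondrial share fell. In whole-well RNA, fewer cells with a transcript and less of it per cell cannot be told apart. CPM are shares of a library, and the amount of RNA per cell is not given in the sources used here. A lower share therefore need not mean fewer transcripts per cell, and the part of this in the falls was not tested. Without mitochondrial genes and Rn45s, an alternative added after the data were seen, 8 genes changed with isotype as before, and 8 also changed when each library was thinned to the smallest total.

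**Figure D3:**
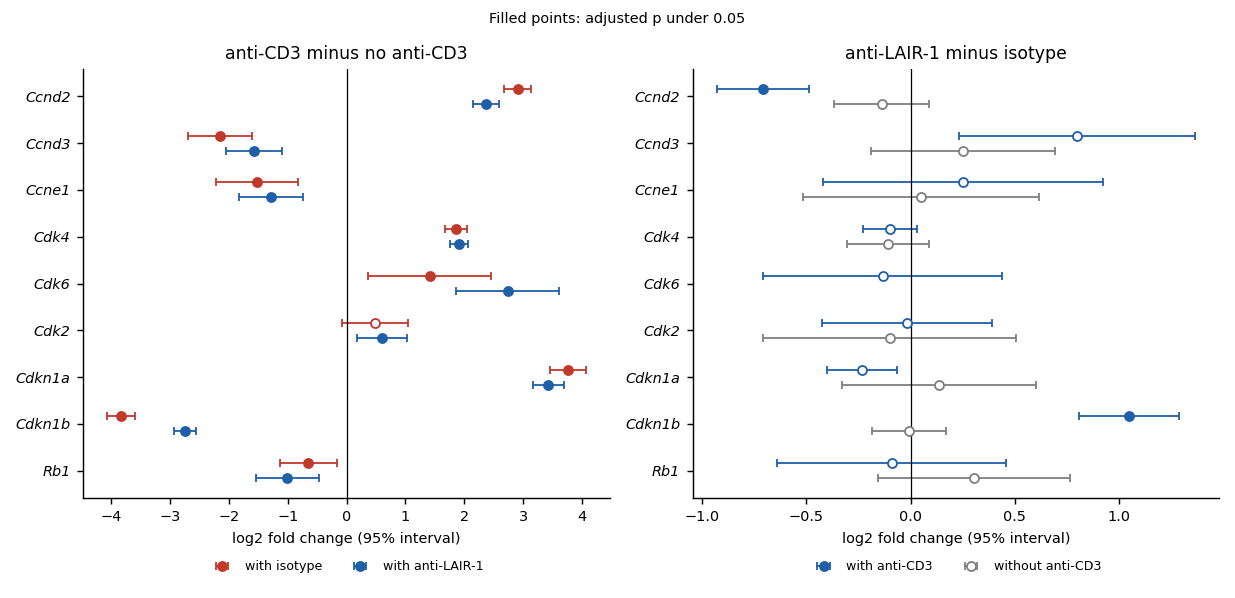
Log2 fold changes of the genes with 95% intervals from edgeR, for anti-CD3 against no anti-CD3 (left, with isotype or anti-LAIR-1) and for anti-LAIR-1 against isotype (right, with or without anti-CD3). Filled points passed an adjusted p of 0.05 and open points did not. On the right Cdkn1b (1.05) and Ccnd2 (-0.71) with anti-CD3 are the filled points, and Cdk6 without anti-CD3 was not tested.

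Anti-LAIR-1 changed 2 of the 9 tested genes in stimulated cells: the inhibitor Cdkn1b was higher and the cyclin Ccnd2 lower. Of all 8800 genes tested, 5.76% changed, 3.9% higher and 1.86% lower. Cdkn1b was 89.0 ± 8.995 CPM with anti-LAIR-1 against 42.2 ± 6.00 CPM with isotype (SD, n = 3), a difference of 1.05 on the log2 scale (SE 0.11, adjusted p = 3.5e-05), or 2.07-fold. It was higher in 3 of 3 mice, by 1.19, 1.02 and 1.01. Both levels were far under those of unstimulated cells, so that Cdkn1b fell less far with anti-LAIR-1 and did not stay at its resting level. Ccnd2 was 634 ± 98.4 against 1030.0 ± 145 CPM, a difference of -0.71 (SE 0.10, adjusted p = 4.9e-04), and was lower in 3 of 3 mice, by -0.47, -0.75 and -0.89. Both calls held in 17 of 17 alternatives. These values share the stimulated libraries with the comparisons described above.

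The other 7 genes did not pass. Ccnd3 was 7.98 ± 1.84 against 4.45 ± 0.216 CPM, with no overlap between the groups and a difference of 0.80 (95% interval 0.23 to 1.37, adjusted p = 0.0960). Cdkn1a was 239 ± 24.7 against 279 ± 8.94 CPM, with a difference of -0.23 (-0.40 to -0.06, adjusted p = 0.104), and passed only without the anti-LAIR-1 library of mouse 1 (-0.32, adjusted p = 0.0314). Cdk4 differed by -0.10 (95% interval -0.23 to 0.03, adjusted p = 0.416), an interval that leaves room for a small decrease and for almost no increase. The intervals of Ccne1 (-0.42 to 0.92), Cdk6 (-0.71 to 0.44), Cdk2 (-0.42 to 0.39) and Rb1 (-0.64 to 0.46) were wide, and these genes had from 14 to 124 reads per stimulated library. Rb1 also varied between mice, at 15.1, 8.79 and 6.57 CPM with anti-LAIR-1. Differences within those bounds were not detectable in these libraries.

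In unstimulated cells none of the 8 tested genes differed between anti-LAIR-1 and isotype at an adjusted p under 0.05 (edgeR and DESeq2), and 0 did at an unadjusted p under 0.05. Of 8770 genes 0 passed (0%), with 384 at an unadjusted p under 0.05. Cdkn1b was 593 ± 42.8 against 596 ± 35.0 CPM, a difference of -0.01 (95% interval -0.18 to 0.17). Ccnd2 was 122 ± 12.2 against 134 ± 10.004 CPM, a difference of -0.14 (-0.36 to 0.09). Cdk6 was not tested here, for too few reads.

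Whether anti-LAIR-1 acted differently with and without anti-CD3 was tested as an interaction over the 12 libraries. Cdkn1b was the 1 gene of 9 that passed, against 2.07% of 9223 genes, 1.82% in the same direction and 0.249% in the other. The effect of anti-LAIR-1 on it was larger by 1.06 on the log2 scale with anti-CD3 than without (SE 0.14, adjusted p = 5.1e-05), by 1.18, 1.00 and 1.06 in mice 1, 2 and 3, and this held in 22 of 22 alternatives (0.84 to 1.19). For Ccnd2 the interaction was -0.56 (SE 0.16, adjusted p = 0.0656), in the same direction in 3 of 3 mice (-0.39, -0.59 and -0.74). The Ccnd2 interaction passed in 5 of 22 alternatives (-0.66 to -0.45, adjusted p up to 0.203), and so failed in most of them. It passed with the mouse as a replicate block (-0.58, adjusted p = 0.0213 in edgeR and 0.00652 in DESeq2). It also passed with DESeq2 without the block (adjusted p = 0.0316) and without the low-count filter (adjusted p = 0.00126). DESeq2 tested 4 of these genes here. Of the 12 alternatives that left out 1 library, 1 passed, without the anti-LAIR-1 stimulated library of mouse 2 (adjusted p = 0.0388). The interactions of the other 7 genes did not pass, at adjusted p-values of 0.550 to 0.976.

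Markers moved with anti-LAIR-1 too. In stimulated cells the naïve CD8 markers summed to 2253 to 2592 CPM with anti-LAIR-1 and to 1777 to 1909 CPM with isotype, while the activation markers overlapped (3419 to 3910 against 3850 to 4188 CPM). The B cell markers summed to 6.99 to 7.77 CPM against 10.5 to 12.5 CPM. The anti-LAIR-1 libraries held 4889990 to 7725545 reads and the isotype ones 3478294 to 6555730. Thinned to the smallest total, Cdkn1b differed by 0.85 between the stimulated groups (adjusted p = 2.4e-04) and by 0.84 in the interaction (adjusted p = 0.00243). The part of the markers in these results was not tested.

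**Figure D4:**
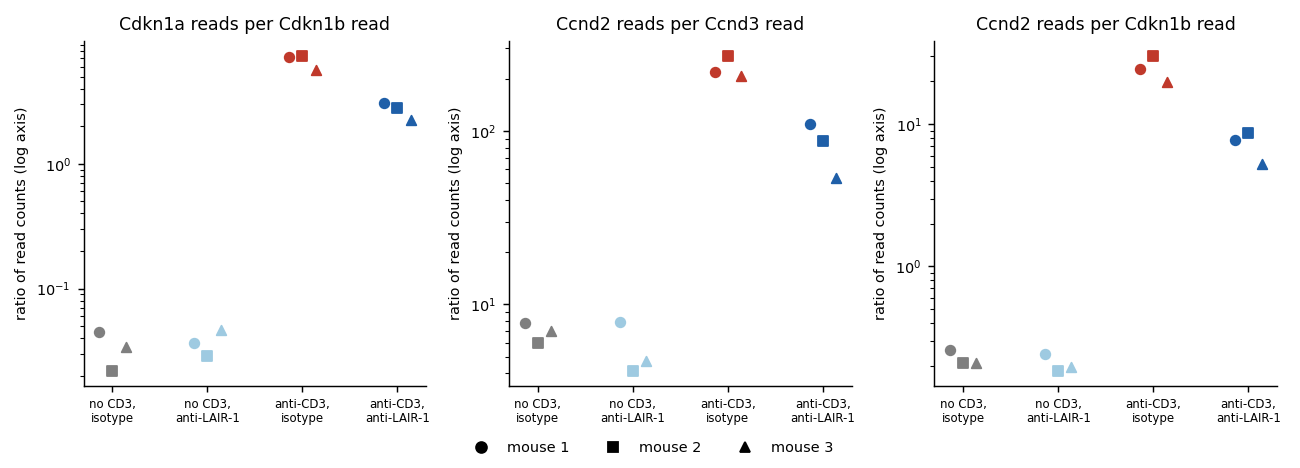
Reads of 1 gene per read of another in the same library, on log axes, for the 4 groups of 3 mice (point shapes). Cdkn1a reads per Cdkn1b read lie at 0.0220 to 0.0467 without anti-CD3, at 5.69 to 7.24 with anti-CD3 and isotype, and at 2.23 to 3.08 with anti-CD3 and anti-LAIR-1.

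A ratio of 2 genes within a library needs no scaling between libraries. Of 5 pairs computed, 3 are plotted. The pairs were chosen after the values were seen, so that they are a description with no test, and since reads come from transcript ends and are not per length, only the change between groups can be read. Reads of Cdkn1a per read of Cdkn1b went from 0.0220 to 0.0467 in the unstimulated libraries to 5.69 to 7.24 with anti-CD3 and isotype, and to 2.23 to 3.08 with anti-CD3 and anti-LAIR-1. Reads of Ccnd2 per read of Ccnd3 went from 4.14 to 7.89, to 208 to 269 and to 53.7 to 110. Reads of Ccnd2 per read of Cdkn1b, a positive and a negative regulator of the same kinases, went from 0.185 to 0.257, to 19.8 to 30 and to 5.29 to 8.74. In these 3 pairs the stimulated libraries with anti-LAIR-1 lay between the unstimulated ones and those with isotype, without overlap. In the other 2 pairs they overlapped with isotype: reads of Cdk4 per read of Cdk6 were 97.5 to 150 with anti-LAIR-1, 85.1 to 149 with isotype and 34.9 to 382 in the unstimulated libraries, and reads of Ccne1 per read of Cdk2 were 0.25 to 0.308, 0.193 to 0.279 and 0.762 to 1.33.

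Most tested genes of a wider list of cyclins, kinases and their partners rose with anti-CD3. The list is not limited to G1, Ccng1 is also counted among the p53 targets below, and Ccnd1 and Skp2 were not tested. Of its 15 tested genes, 11 were higher and 2 lower with isotype, at a median log2 fold change of 0.86 beside -0.03 over all genes. Of all genes tested, 35.3% were higher and 36.1% lower. Cks1b, a small kinase-binding subunit that helps the ubiquitin ligase SKP2 to recognise p27, rose by 2.12 (adjusted p = 5.1e-07). Ccnh, the cyclin of the CDK-activating kinase, rose by 1.65 (adjusted p = 1.9e-08). The 2 that fell were Ccng2, by 3.62 (adjusted p = 5.9e-14), and the F-box gene Fbxo4, by 1.83 (adjusted p = 4.5e-05). Fbxo4, at 7 to 23 reads per stimulated isotype library, needed the unstimulated libraries to pass the filter, so that the filter favoured its fall. Ccng2 encodes cyclin G2, an unusual cyclin linked to arrest rather than to entry into the cycle. With anti-LAIR-1, 12 of 15 were higher and 2 lower, beside 36.4% and 36.3% of all genes.

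Of the 6 other inhibitors listed, 2 INK4 genes passed the filter and were lower with anti-CD3 and isotype: Cdkn2d (p19) by 3.12, from 22.5 to 2.69 CPM (adjusted p = 8.5e-10), and Cdkn2c (p18) by 2.77, from 5.74 to 0.960 CPM (adjusted p = 6.4e-05). Cdkn2c had 2 to 6 reads and Cdkn2d 10 to 14 reads in the stimulated isotype libraries. Both passed the filter only through the unstimulated group, where they were high, so that the filter itself favoured a fall. Of all genes tested, 36.1% were lower. With anti-LAIR-1 Cdkn2d fell by 2.34 (adjusted p = 8.7e-08) and Cdkn2c by 1.55 (adjusted p = 6.7e-04). Here too Cdkn2c passed the filter only through the unstimulated group. In stimulated cells Cdkn2d stood at 4.46 CPM with anti-LAIR-1 and did not pass against isotype (0.72, 95% interval -0.08 to 1.51, adjusted p = 0.314), and Cdkn2c was not tested.

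The factors that these kinases release were mixed. Of 12 tested RB relatives, E2F and DP factors, 3 were higher and 6 lower with isotype (median -0.55). Together this is near the share of all genes that changed, 71.3% (35.3% higher and 36.1% lower). E2f2, an activator E2F, stood at 4.77 CPM before and had 1 read over the 3 stimulated isotype libraries, so that its fall is given without a fold. It too passed the filter only through the unstimulated group, as did Foxo4 described below. Tfdp2, a DP partner of E2F, fell by 2.20 (adjusted p = 4.6e-07) and Rbl1 (p107) by 2.09 (adjusted p = 1.2e-08), while E2f6, a repressor, rose by 1.69 (adjusted p = 7.1e-08). With anti-LAIR-1, 4 of 13 were higher and 6 lower, beside 36.4% and 36.3% of all genes. Rbl2 (p130), which had too few reads to be tested with isotype, fell there by 1.90 (adjusted p = 4.7e-04). Rbl2 had 2 to 14 reads per stimulated library and also passed the filter only through the unstimulated group, where it was high.

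Genes of S phase moved in both directions. Of 20 E2F-regulated S phase genes, 12 were tested with isotype, and 5 were higher and 3 lower (median -0.02). Together this is near the share of all genes that changed, 71.3% (35.3% higher and 36.1% lower). Ung, which removes uracil from DNA, rose by 2.04 (adjusted p = 1.9e-11), the replication clamp Pcna by 1.25 (adjusted p = 3.2e-11) and the helicase subunit Mcm2 by 0.86 (adjusted p = 4.2e-06). Of 16 genes of S, G2 and M phase, among them Mki67, Cdk1 and Ccnb1, 1 had enough reads to test and did not pass in edgeR, while DESeq2 tested 13 and called 1. With anti-LAIR-1, 5 of 13 S phase genes were higher and 3 lower, beside 36.4% and 36.3% of all genes. Top2a fell there by 0.91 (adjusted p = 0.0359) and lost its call without either of 2 unstimulated or either of 2 stimulated libraries and with DESeq2 (adjusted p = 0.137). At 10 to 34 reads per stimulated library, Top2a needed the unstimulated libraries to pass the filter, so that the filter favoured a fall.

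Cdkn1a is a p53 target, and other targets of p53 moved in both directions. Of 14 tested, 5 were higher and 6 lower with isotype (median 0.15), near the 35.3% and 36.1% of all genes. These counts therefore say nothing particular of p53 targets. Aen, an apoptosis-enhancing nuclease, rose by 2.80 (adjusted p = 4.3e-13) and Phlda3, an inhibitor of AKT, by 2.35 (adjusted p = 1.1e-05). Phlda3 had 1 to 11 reads per unstimulated isotype library and needed the stimulated libraries to pass the filter, so that the filter favoured its rise. Sesn1 (sestrin 1) fell by 3.02 (adjusted p = 1.2e-12) and Bbc3 (PUMA) by 1.43 (adjusted p = 1.2e-06). With anti-LAIR-1, 7 of 14 were higher and 6 lower, beside 36.4% and 36.3% of all genes.

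Of 14 tested regulators upstream of these genes, 5 were higher and 5 lower with isotype (median -0.22), near the 35.3% and 36.1% of all genes. Myc, a factor that activates Ccnd2 and Cdk4, rose by 3.94, from 44.1 to 690 CPM (adjusted p = 6.6e-18). Among those that fell were Foxo4, of the FOXO family that activates Cdkn1b, by 3.86 from 13.0005 to 0.833 CPM (adjusted p = 1.7e-07, 0 to 8 reads per stimulated library), Klf2 by 3.74 (adjusted p = 3.0e-19) and the antiproliferative gene Tob1 by 2.92 (adjusted p = 3.8e-10). Tob1, at 9 to 30 reads per stimulated isotype library, needed the unstimulated libraries to pass the filter, as Foxo4 did, so that the filter favoured these falls. With anti-LAIR-1, 5 of 14 were higher and 7 lower, beside 36.4% and 36.3% of all genes.

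**Figure D5:**
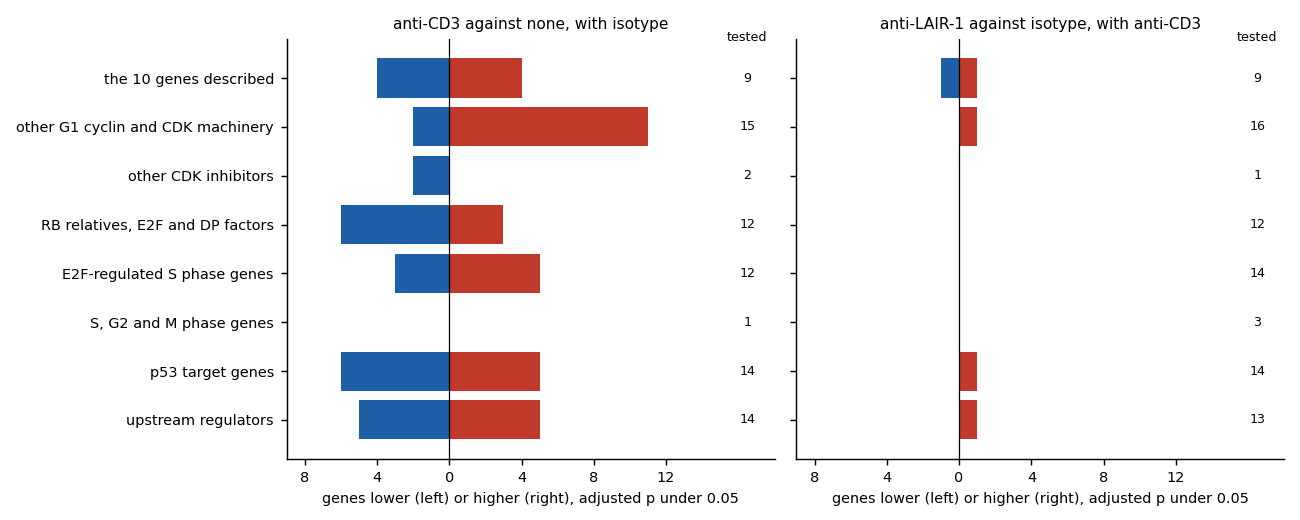
Number of genes of each list that were higher (right, red) or lower (left, blue) at an adjusted p under 0.05, for anti-CD3 against none with isotype (left panel) and, in stimulated cells, for anti-LAIR-1 against isotype (right panel), with the number tested at the right edge. With anti-CD3, 11 of 15 genes of the list labelled other G1 cyclin and CDK machinery are higher and 2 lower, beside 35.3% and 36.1% of all genes. That list is not limited to G1. With anti-LAIR-1 no list has more than 1 gene on either side.

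In stimulated cells anti-LAIR-1 changed 3 genes over these lists, which is no larger a share than the 5.76% of all genes that changed. Ccng2 stood at 12.5, 14.9 and 16.7 CPM with anti-LAIR-1 and at 4.84, 5.09 and 8.36 CPM with isotype, a rise of 1.20 (SE 0.23, adjusted p = 0.00483) that held in 17 of 17 alternatives. Klf2, a factor that keeps T cells quiescent, stood at 173, 239 and 237 CPM against 104, 109 and 105 CPM, a rise of 1.02 (SE 0.11, adjusted p = 2.8e-05), which also held in 17 of 17. As for Cdkn1b, the levels with anti-LAIR-1 lay between the unstimulated ones (68.5 to 83.2 CPM for Ccng2 and 1263 to 2263 CPM for Klf2) and those with isotype. Trp53inp1, a p53 target, rose by 0.43 (adjusted p = 0.0467) and held in 9 of 17 alternatives. It lost its call without any 1 of 5 libraries, all but the isotype library of mouse 3 (adjusted p = 0.0670 to 0.211), and with DESeq2 (adjusted p = 0.0540).

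By list, these were 1 of 16 other cyclins, kinases and partners, 1 of 14 p53 targets and 1 of 13 upstream regulators. No gene passed among 12 RB relatives and E2F factors (1 at an unadjusted p under 0.05), 14 S phase genes (1 unadjusted), 3 genes of S, G2 and M phase (0 unadjusted) or the 1 INK4 inhibitor tested (0 unadjusted). DESeq2 called 0 in each of these 4 lists, where it tested any, and 0 of 13 p53 targets, 1 of 14 other cyclins, kinases and partners (Ccng2) and 2 of 13 upstream regulators (Klf2 and Myc). Myc differed by -0.28 in edgeR (95% interval -0.44 to -0.11, adjusted p = 0.0519) and by -0.29 in DESeq2 (adjusted p = 0.0197), so that its call depended on the tool. In unstimulated cells 0 genes of the lists passed in edgeR or DESeq2.

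To see which transcripts followed the same course, the log2 CPM of each gene was correlated with that of 6400 genes of at least 50 reads on average over the 12 libraries. The libraries fall into stimulated and unstimulated ones, which sets most of these values, so that they only describe likeness. The 3 most like Cdk4 were Npm1, Ddx18 and Ran (r = 0.998 to 0.999), which encode nucleophosmin, an RNA helicase and a nuclear transport GTPase. Those for Ccnd2 were Cct4, Esf1 and Mat2a (r = 0.995), and those for Cdkn1a were Cdca7, Alcam and Tars (r = 0.998 to 0.999). Cdkn1b was most like Hmha1, Rnf167 and Lsp1 (r = 0.998), Ccnd3 like Sft2d2, Neat1 and Phf1 (r = 0.985 to 0.990) and Ccne1 like Ccser2, Rapgef4 and Trim12c (r = 0.990 to 0.991). The noisier genes had lower values: Kcmf1, Pias2 and Saysd1 for Cdk6 (0.964 to 0.985), Lamp2 and Lpcat3 for Cdk2 (0.922 and 0.903) and Fam114a2, Atad2 and Zfp777 for Rb1 (0.925 to 0.931).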

How the data were processed

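The table the authors deposited holds raw read counts per gene symbol for the 12 libraries, with no normalization. By the study's methods, libraries followed an adapted CEL-seq protocol, the second read was aligned to the mm10 transcriptome with BWA MEM, reads that fitted several places equally were discarded, and the rest were counted with MapAndGo. Whether molecular identifiers were collapsed, and whether strand was used, is not given in the sources used here, so that intervals cover the spread between libraries, and counting error may include amplification.

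Counts were tested with edgeR 4.0.16 in R 4.3.3 (TMM, filterByExpr, quasi-likelihood F test, Benjamini-Hochberg over all genes tested, threshold 0.05). The study names DESeq2, which was an alternative (version 1.42.0). Each comparison used the 6 libraries of its 2 groups, and the interaction used all 12. The SE is the absolute log2 fold change over the square root of F. Libraries are 1 well per mouse and condition, and with 3 per group a permutation test of 1 gene cannot give a two-sided p under 0.1, so that none was used. Levels are CPM over all 12 libraries, and likeness used log2 CPM with a prior count of 2. Scripts were tested on simulated data.

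The same mice gave every condition, so the mouse number pairs the libraries by design. Deviations from group means correlated at r = 0.0432 on average between libraries of 1 mouse (-0.00682 to 0.0882 over 18 pairs) and at -0.0216 between mice. The main tests carry no block, as the study names none.

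The genes and lists were chosen with earlier results of these data known. Named are the 10 genes, up to 4 genes per list and comparison with the largest absolute log2 fold change among those that passed, and the 3 genes most like each, of which some are not reported here. Gene positions are from GENCODE M21 (GRCm38) and promoters from RefSeq (GRCm38.p6). Other size factors, filters, DESeq2, the mouse block, all 12 libraries in the fit and leaving out each library were alternatives. Library size alone, thinning, leaving out mitochondrial genes and Rn45s, and all settings for the genes of the lists were chosen after seeing the data.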

Additional observations from a re-analysis of the deposited data

Results flagged for a closer look

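For 3 genes named in the text, stimulated and unstimulated cells differed in their response to anti-LAIR-1, by the interaction test. The response was larger with anti-CD3 by 1.06 on the log2 scale for Cdkn1b (SE 0.14, edgeR adjusted p = 5.1e-05, 3 of 3 mice), by 1.09 for Ccng2 (SE 0.24, adjusted p = 0.0125, 3 of 3 mice) and by 0.69 for Klf2 (SE 0.18, adjusted p = 0.0417, 3 of 3 mice, with 0.02 in mouse 1). The first held in 22 of 22 alternatives and the second in 18 of 22. The call of Ccng2 was lost without the stimulated isotype library of mouse 1 (adjusted p = 0.0525) or mouse 2 (0.0709), without the stimulated anti-LAIR-1 library of mouse 3 (0.0501) and with libraries thinned to the smallest total (0.0875). The call of Klf2 held in 11 of 22 alternatives, in 3 of the 12 that left out 1 library and with neither DESeq2 test (adjusted p = 0.143, and 0.261 with the mouse block).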

How the results depend on the processing

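Of 774 values of the 10 genes under alternatives, 725 kept their direction and their side of the threshold, 11 lost their call, 8 gained one and 30 changed sign. Those that changed sign had not passed. For genes of the lists, 805 of 840 values kept theirs and 35 lost a call. The number of the 10 genes called in the interaction was 1, and 2 with DESeq2, without the filter, with the mouse as a replicate block in edgeR or DESeq2, and without the anti-LAIR-1 stimulated replicate 2 (1 to 2 when each library was left out). In edgeR the block changed no other call of a named gene. In DESeq2 with the block, the named genes that lost a call were Rb1 (-0.62, adjusted p = 0.179) with anti-CD3 and isotype, Cdk2 (0.66, 0.100) and Top2a (-0.99, 0.171) with anti-CD3 under anti-LAIR-1, Trp53inp1 (0.44, 0.125) with anti-LAIR-1 in stimulated cells and Klf2 in the interaction. Cdk2 with anti-LAIR-1 also lost its call with upper quartile scaling (0.40, adjusted p = 0.0879) and with thinning (0.55, 0.0812), and with isotype it passed without the filter (0.58, 0.0479). Upper quartile scaling moved the median of all genes by -0.18 with isotype and -0.21 with anti-LAIR-1 in the comparisons with anti-CD3, and library size alone by -0.09 and -0.11, and no direction of the 10 genes changed there.

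Values that changed sign were the following, with adjusted p-values of at least 0.706. With anti-CD3, the anti-LAIR-1 differences of Cdk2 (-0.14 to 0.18), Cdk6 (-0.33 to 0.0361) and Rb1 (-0.52 to 0.12) did so when libraries were left out, and that of Cdk6 with thinning (0.21). Without anti-CD3 they were Ccne1 (-0.13 with thinning, -0.0081 to 0.14 with libraries left out), Cdk2 (0.0514 with thinning, -0.31 to 0.17), Cdkn1a (-0.0715 to 0.38) and Cdkn1b (2.6e-04 with upper quartile scaling, 0.0121 with thinning, -0.0683 to 0.0353). In the interaction they were Cdk2 (-0.13 with thinning, -0.18 to 0.30), Cdk4 (-0.0135 without the filter, -5.8e-05 without mitochondrial genes and Rn45s, -0.0374 to 0.0542) and Cdk6 (-0.27 to 1.76).

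Of all genes, 507 changed with anti-LAIR-1 in stimulated cells, against 224 in DESeq2 with the block (220 shared), 285 with thinning (248 shared) and 293 to 427 with libraries left out. With all 12 libraries in the fit, 79.8% of 490 calls were higher, against 67.7%. In the interaction 191 changed, against 109 with thinning and 103 to 186 with libraries left out. Depth limits Ccne2, Cdk6 and Ccne1 most.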
